A study of Mus musculus with 4 samples.

Results

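The genes described here encode transcription factors and nuclear proteins of the early response to the T cell receptor (TCR): the EGR factors Egr1, Egr2 and Egr3, the NR4A nuclear receptors Nr4a1, Nr4a2 and Nr4a3, the immediate early response genes Ier2, Ier3 and Ier5, and the EGR co-repressor Nab2. They were chosen by name, with earlier results of these data known, and all 10 were found among the 16142 genes of the deposited table. RNA-seq was read in 2 libraries of wild type (WT) CD4+ T cells, from the spleen of B6 mice, and in 2 libraries of R111A CD4+ T cells, from the spleen of Cd4CreERT2 LSL-R111A fl/fl mice. R111A is a form of Regnase-1, an RNA-degrading protein encoded by Zc3h12a, in which the site that the protease MALT1 cleaves is mutated. It was expressed from a CAG promoter in the Rosa26 locus, together with EGFP, once Cre under the control of Cd4 and activated by tamoxifen (75 mg/kg, given i.p. over 5 days) had removed a STOP cassette. The labels do not make clear whether the WT mice of these libraries also had tamoxifen. The study's mice were generally of both sexes and aged 6 to 12 weeks, with no age given for these libraries in particular. Cells were enriched with beads, sorted by FACS and activated with 5 µg/mL anti-CD3 and 1 µg/mL anti-CD28 for 12 h. In the study's general sorting method, cells of GFP reporter mice were gated on GFP first. Used here, that step would select R111A cells by EGFP and leave WT cells without this selection. Its use for these libraries in particular is not stated. Whether the sort for RNA-seq removed CD25+ cells is not given in the sources used here. All 4 libraries hold stimulated cells, so every difference below is between genotypes after stimulation, not between resting and stimulated cells. Nothing states that the 2 libraries of a group came from separate animals, so p-values measure the spread between these libraries, which may be technical.

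EGR proteins are zinc finger transcription factors whose genes are switched on soon after a T cell meets antigen, Egr1 mainly through ERK signalling and the serum response factor, and Egr2 and Egr3 with a strong part of calcineurin and NFAT. In T cells EGR2 and EGR3 are known for restraining activation, and NAB2 binds EGR proteins and represses the genes they act on. NR4A receptors have no known need for a ligand, so their amount is a main control of their activity. Nr4a1 is widely used as a reporter of TCR signal strength, and the family is known for its part in tolerance, exhaustion and regulatory T cells (Tregs). IER2, IER3 and IER5 are small proteins induced by growth factors, stress and antigen; IER5 is known to act with the heat shock factor HSF1.

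Sequences before the start sites of Nr4a1, Nr4a2 and Egr2 are shown because these were the NR4A and EGR genes with the largest fold changes given below. RefSeq promoter entries (GRCm38.p6, 250 bases before to 50 after a start site) were found for 7 of the 10 genes. Egr1, Egr3 and Ier2 had no entry. The letters TGACG, the half-site of the cyclic AMP response element that CREB binds, were searched on both strands, as was the CArG box of the serum response factor. Capitals mark TGACG, or CGTCA where it lies on the other strand, in the first 2 sequences, and the CArG box in the last.
Nr4a1: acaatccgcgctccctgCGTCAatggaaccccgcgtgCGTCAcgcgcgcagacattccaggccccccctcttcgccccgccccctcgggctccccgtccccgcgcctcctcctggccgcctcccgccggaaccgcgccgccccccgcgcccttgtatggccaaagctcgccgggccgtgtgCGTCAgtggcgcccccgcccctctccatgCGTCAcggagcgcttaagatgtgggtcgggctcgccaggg
Nr4a2: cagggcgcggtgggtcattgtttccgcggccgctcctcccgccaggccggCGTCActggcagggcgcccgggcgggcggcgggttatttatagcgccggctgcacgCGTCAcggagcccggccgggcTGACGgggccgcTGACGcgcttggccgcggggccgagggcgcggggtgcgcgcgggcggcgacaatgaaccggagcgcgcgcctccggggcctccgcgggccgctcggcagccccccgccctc
Egr2: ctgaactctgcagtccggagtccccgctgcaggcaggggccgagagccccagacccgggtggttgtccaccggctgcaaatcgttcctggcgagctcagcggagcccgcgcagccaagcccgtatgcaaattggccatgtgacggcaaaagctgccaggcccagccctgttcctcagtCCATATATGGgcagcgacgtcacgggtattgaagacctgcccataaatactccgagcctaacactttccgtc
The Nr4a1 sequence is chr15:101266596-101266845 on the plus strand, upstream of the start site of the main transcript and inside an intron of 1 longer Nr4a1 transcript in GENCODE. The Nr4a2 sequence is chr2:57124004-57124253 on the minus strand, upstream of the gene. The Egr2 sequence is chr10:67537619-67537868 on the plus strand, upstream of the start site of the main transcript and within introns of 2 longer Egr2 transcripts. Nr4a1, Nr4a2 and Nr4a3 each held 4 matches to TGACG in their 300-base entries, while 20.8% of the 32851 promoter entries held at least 1 match and 0.231% held at least 4. The matches of Nr4a3 lay between positions -231 and -147 from the start site of its entry. The printed entry of Egr2, 1 of 5 for that gene, held 2 matches to TGACG and a CArG box that began at position -72 from its start site. Of the 5 entries, some of which overlap, 3 held TGACG and 4 a CArG box; 1.63% of all entries held a CArG box. Nr4a1 and Nr4a2 each held 1 match to the EGR letters GCGNGGGCG, found in 5.55% of entries. The NR4A letters AAAGGTCA, found in 1.51% of entries, were in none of the 11 entries of these genes. The Ier3, Ier5 and Nab2 entries held no match to the letters searched. A match is a description of the sequence and not a sign of binding.

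Values are FPKM, reads scaled by the authors for gene length and library size. Zc3h12a, the gene whose mutant form the transgene encodes, was read first as a check of the labels. It stood at 17.0 and 15.7 FPKM in replicates 1 and 2 of WT and at 196 and 131 FPKM in those of R111A. Both R111A libraries were thus far above both WT libraries, with a mean 10.0 times that of WT. The values do not separate RNA of the transgene from that of the native gene. Cd4 itself was read at 158 and 131 FPKM in WT against 70.7 and 51.4 FPKM in R111A, and Cd3e at 172 and 157 FPKM in WT compared with 180 and 135 FPKM in R111A. These defining T cell genes were therefore present in every library.

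Of the 10 genes, 9 averaged 1 FPKM or more over the 4 libraries and were tested, each of them above that level in WT as well. The test was limma on log2(FPKM + 1) over 9831 genes with Benjamini-Hochberg adjustment. Of the 9 genes, 7 passed an adjusted p of 0.05 with higher values in R111A, and 0 did with lower values; over all genes tested, 21.2% passed with higher values and 32.1% with lower values. At an unadjusted p under 0.05 limma gave 1 lower gene, Egr3. A 2-fold change was reached as well by 5 of the 9 upward and by 0 downward, beside 8.52% of all genes upward and 8.34% downward. Both R111A libraries were above both WT libraries for 8 of the 9 genes and below both for 1, beside 32.0% and 46.3% of all genes. The 5 genes past both thresholds were Nr4a1, Nr4a2, Egr1, Egr2 and Ier5. In bulk RNA a difference in how many cells express a gene and a difference in its RNA per cell cannot be told apart.

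Nr4a1, the best known of the NR4A receptors (NUR77), was read at 146 and 144 FPKM in replicates 1 and 2 of WT and at 983 and 616 FPKM in those of R111A. The groups did not overlap, the 2 WT libraries were nearly alike, and R111A replicate 1 was the higher of its pair. Nr4a1 rose by a log2 fold change of 2.42 (95% interval 1.96 to 2.88, adjusted p = 3.8e-05). By its mean over the 4 libraries it ranked 191 of the 16142 genes. Nr4a2 (NURR1) was read at 5.88 and 6.99 FPKM in WT versus 49.3 and 45.9 FPKM in R111A. It was the receptor with the lowest WT level, and its 2 R111A libraries lay close together, far above WT. It rose by 2.71 on the log2 scale (95% interval 2.38 to 3.04, adjusted p = 5.5e-06), the largest fold change among the 9 genes tested, except with a pseudocount of 5 FPKM (2.20, against 2.39 for Nr4a1). Nr4a3 (NOR1) was read at 55.0 and 54.6 FPKM in WT against 74.1 and 58.5 FPKM in R111A. Both R111A libraries were above WT, replicate 2 only slightly. The log2 difference of Nr4a3 was 0.26 with a 95% interval of -0.077 to 0.60 (adjusted p = 0.17), so it did not pass. It passed after quantile normalization (0.49, adjusted p = 0.027), and its sign turned when rescaled to TPM (-0.069, adjusted p = 0.70). Without R111A replicate 2 its log2 difference was 0.43, with the spread taken from the WT pair alone.

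**Figure D1:**
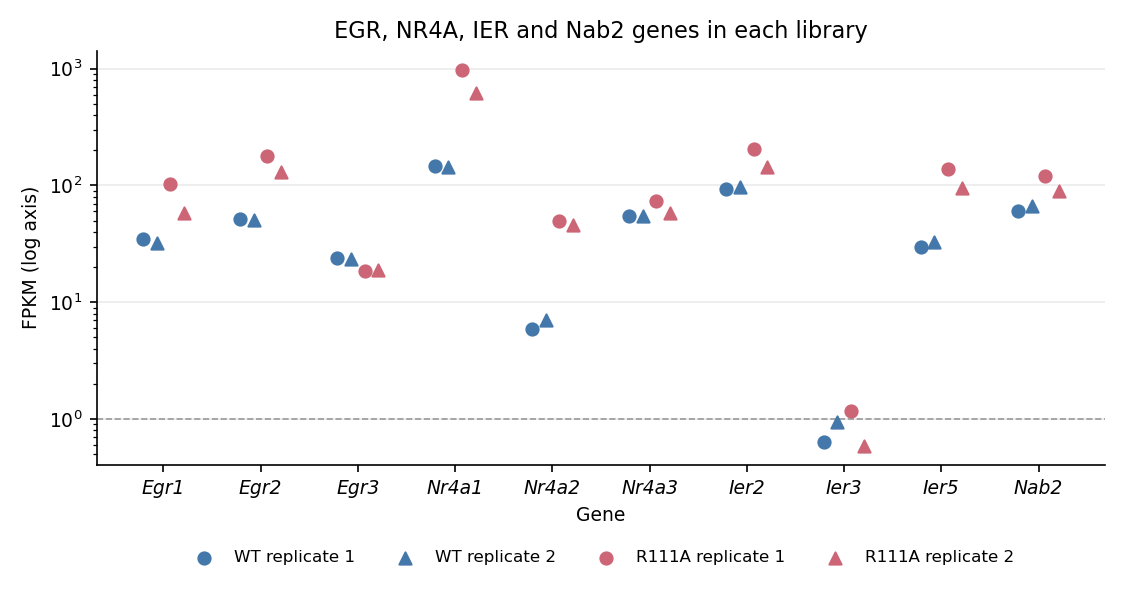
FPKM of the 10 genes (x axis) on a log axis, with 1 point for each library: WT in blue, R111A in red, circles for replicate 1 and triangles for replicate 2. The dashed line is 1 FPKM, the minimum mean for testing. The R111A points are above the WT points for 8 genes, below them for Egr3, and on either side of them for Ier3.

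The 3 receptors therefore made up different shares of their family in the 2 genotypes. Such shares are taken within 1 library and do not change when all its values are multiplied by 1 factor, though quantile normalization can change them. Nr4a1 gave 70.5% and 70.0% of the summed NR4A FPKM in WT and 88.9% and 85.5% in R111A. Nr4a3 gave 26.6% and 26.6% in WT and 6.70% and 8.12% in R111A. Nr4a2 gave 2.85% and 3.40% in WT and 4.45% and 6.37% in R111A. In R111A the share of Nr4a3 was thus lower in both libraries and that of each other receptor higher in both. The ratio of Nr4a2 to Nr4a3 was 0.107 and 0.128 in WT and 0.665 and 0.784 in R111A. The family's summed level was 207 and 205 FPKM in WT against 1106 and 721 FPKM in R111A. No test was run on these shares; with 2 libraries against 2, an exact two-sided permutation test cannot give a p below 0.333.

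Egr2 was read at 51.4 and 50.6 FPKM in WT compared with 179 and 130 FPKM in R111A. The groups did not overlap, and the distance between them was larger than that between the 2 R111A libraries. Egr2 rose by 1.56 on the log2 scale (95% interval 1.19 to 1.94, adjusted p = 1.2e-04). Egr1 was read at 35.1 and 31.9 FPKM in WT versus 103 and 57.9 FPKM in R111A. All WT values were below all R111A values, but the R111A libraries stood far apart. Egr1 rose by 1.18 (95% interval 0.64 to 1.72, adjusted p = 0.0033), a change that was under 2-fold without R111A replicate 1 (0.77, adjusted p = 0.0016) and when rescaled to TPM (0.85, adjusted p = 0.0031). Its adjusted p was at most 0.040 in each of its 14 alternatives. Egr3 was read at 24.0 and 23.3 FPKM in WT against 18.5 and 18.9 FPKM in R111A. It was the only one of the 10 genes with both R111A libraries below both WT libraries. Its log2 difference was -0.32 (95% interval -0.62 to -0.028, adjusted p = 0.063), which did not pass after adjustment. Egr3 passed, with lower values, when rescaled to TPM (-0.65, adjusted p = 0.0022). It did not pass with median-of-ratios factors (-0.196, adjusted p = 0.24) or after quantile normalization (-0.215, adjusted p = 0.20). Without R111A replicate 1 or replicate 2 its log2 difference was -0.31 or -0.34, with the spread taken from the WT pair alone.

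Within the EGR family, Egr3 gave 21.7% and 22.1% of the summed FPKM in WT and 6.17% and 9.12% in R111A. Egr2 gave 46.5% and 47.8% in WT and 59.6% and 62.9% in R111A, and so was the most abundant EGR gene in each library. Egr1 gave 31.8% and 30.1% in WT and 34.2% and 27.97% in R111A, so its share overlapped between the genotypes. Egr2 stood at 2.15 and 2.17 times Egr3 in WT and at 9.66 and 6.90 times Egr3 in R111A. The summed level of the 3 genes was 110 and 106 FPKM in WT compared with 300 and 207 FPKM in R111A.

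**Figure D2:**
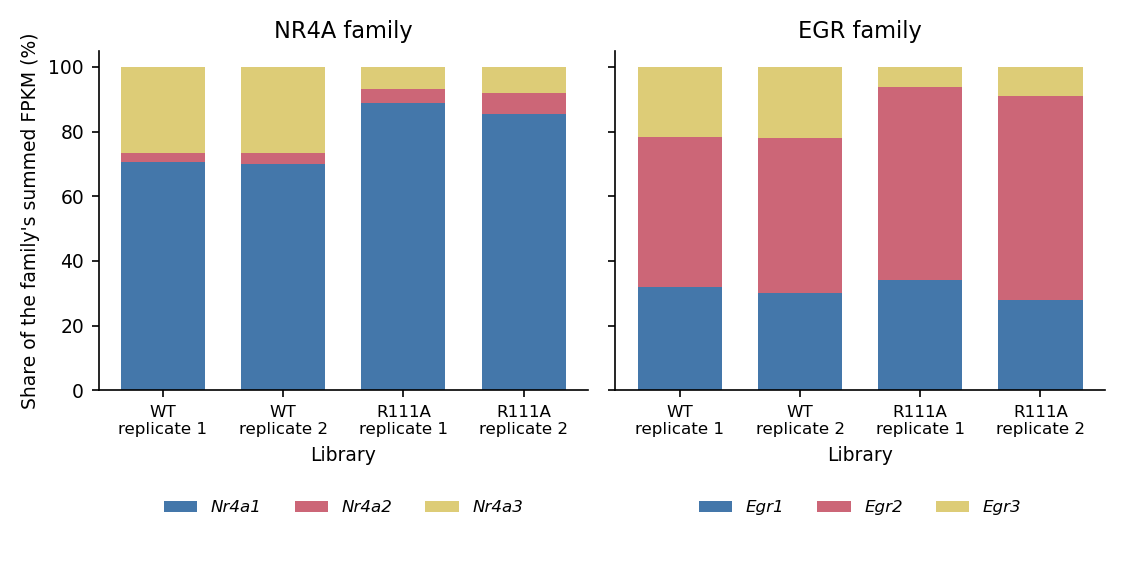
Share of each gene in the summed FPKM of its family (y axis, %), with 1 bar for each library and 1 colour for each gene; NR4A on the left and EGR on the right. The top segments, Nr4a3 and Egr3, are smaller in both R111A libraries (6.70% and 8.12%; 6.17% and 9.12%) than in the WT libraries.

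Nab2, whose protein dampens EGR activity, was read at 60.2 and 66.2 FPKM in WT versus 121 and 89.5 FPKM in R111A. It rose by 0.72 (95% interval 0.34 to 1.09, adjusted p = 0.0066), which is under 2-fold. The groups did not overlap, and both R111A libraries were above WT. Relative to the summed EGR level, Nab2 stood at 0.545 and 0.626 in WT and at 0.405 and 0.433 in R111A, so both R111A ratios were lower. The related co-repressor gene Nab1 was read at 9.80 and 9.15 FPKM in WT against 10.6 and 10.5 FPKM in R111A (log2 difference 0.14, 95% interval -0.17 to 0.45; -0.17 with TPM).

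Ier5 was read at 29.4 and 32.6 FPKM in WT compared with 139 and 94.7 FPKM in R111A. It rose by 1.85 (95% interval 1.43 to 2.28, adjusted p = 8.7e-05), with no overlap between the groups. Ier2, whose product is a nuclear protein, was read at 92.8 and 97.8 FPKM in WT versus 206 and 144 FPKM in R111A. It too was higher in both R111A libraries, by 0.85 (95% interval 0.45 to 1.25, adjusted p = 0.0038); this was under 2-fold, and ran from 0.52 with TPM and 0.59 without R111A replicate 1 to 1.07 after quantile normalization and 1.10 without R111A replicate 2. The ratio of Ier5 to Ier2 was 0.317 and 0.333 in WT and 0.674 and 0.657 in R111A, with little spread inside either group. Ier3, known for its part in cell survival, was read at 0.64 and 0.94 FPKM in WT against 1.18 and 0.59 FPKM in R111A. Its mean was under the minimum for testing, and the groups overlapped. Of the heat shock genes, to which IER5 is linked through HSF1, Hspa1a was read at 0.24 and 0.41 FPKM in WT compared with 2.27 and 2.45 FPKM in R111A, and Hspa8 at 4150 and 3965 FPKM in WT versus 1870 and 1922 FPKM in R111A. Hspa1a and Hspa1b averaged under 1 FPKM in WT and passed the minimum mean only through R111A, so no count is read from them. Of the other heat shock genes, Hsph1 and Hspa8 fell and Dnajb1 did not pass.

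The order of the levels differed between the genotypes. In WT the mean FPKM (± SD, n = 2) ran from Nr4a1 at 145 ± 1.33 through Ier2 at 95.3 ± 3.56, Nab2 at 63.2 ± 4.31, Nr4a3 at 54.8 ± 0.311 and Egr2 at 51.0 ± 0.552 to Egr1 at 33.5 ± 2.29, Ier5 at 31.0 ± 2.26, Egr3 at 23.6 ± 0.446, Nr4a2 at 6.44 ± 0.785 and Ier3 at 0.790 ± 0.212. Of these neighbours, the libraries of Egr1 and Ier5 overlapped and the others did not. In R111A the order was Nr4a1 at 800 ± 259, Ier2 at 175 ± 43.7, Egr2 at 154 ± 34.3, Ier5 at 117 ± 31.2, Nab2 at 106 ± 22.6, Egr1 at 80.2 ± 31.6, Nr4a3 at 66.3 ± 11.0, Nr4a2 at 47.6 ± 2.41, Egr3 at 18.7 ± 0.262 and Ier3 at 0.885 ± 0.417. There the libraries of each neighbour from Ier2 down to Nr4a3 overlapped with the next, while Nr4a1, Nr4a2, Egr3 and Ier3 stood apart from their neighbours. Egr2, Ier5 and Nr4a2 thus stood higher in the order of the 10 means in R111A than in WT, and Nab2, Nr4a3 and Egr3 lower.

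The FPKM values of a library summed to 801475 and 836143 in WT and to 1053551 and 1012215 in R111A, so the choice of scaling shifts every gene. The median log2 fold change over all genes was -0.12 as deposited. Rescaling to TPM, which sets these sums equal, moved that median by -0.30, median-of-ratios factors by 0.12 and quantile normalization by 0.07. Relative to the median of all genes, Nr4a3 stood at 0.38 as deposited and at 0.35, 0.39 and 0.53 under the 3 other scalings, and Egr3 at -0.21 as deposited and at -0.23, -0.20 and -0.17. The 7 genes that rose did so under each of these scalings. Nab2 came closest to the threshold, with an adjusted p of 0.044 both with TPM (0.385) and without WT replicate 1 (0.65), the highest of its 14 alternatives. Over all genes, 838 were called higher and 820 lower as deposited, and the split was 580 and 1756 with TPM and 987 and 609 with median-of-ratios factors.

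**Figure D3:**
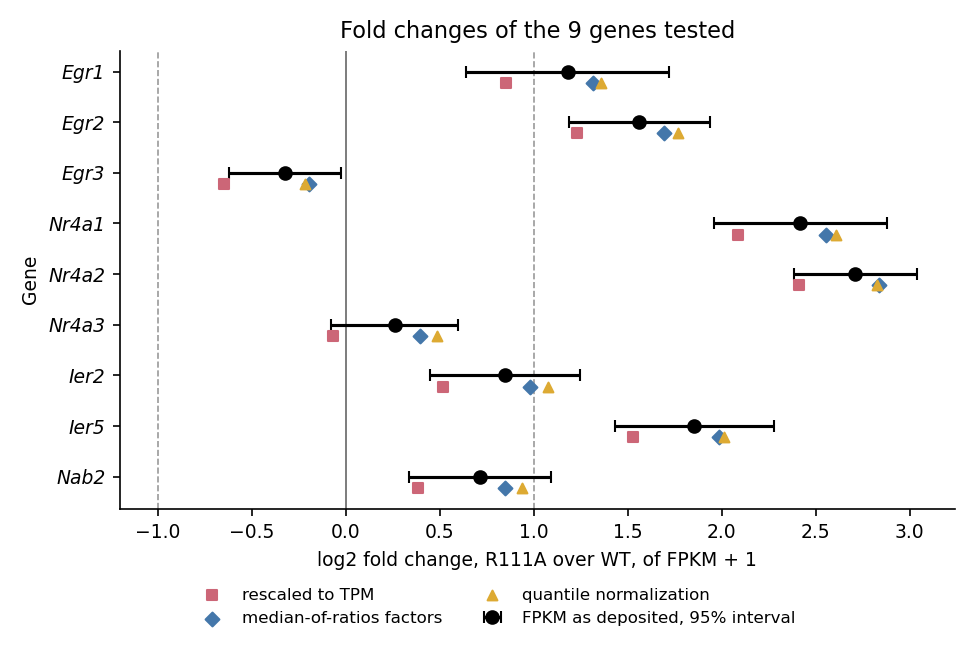
Log2 fold change of R111A over WT on the FPKM + 1 scale (x axis) for the 9 genes tested. Black points are values as deposited with 95% intervals, coloured points the values under 3 other scalings, and dashed lines a 2-fold change. Only the interval of Nr4a3 crosses 0 (-0.077 to 0.60), and its TPM value (-0.069) lies below 0.

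The 2 R111A libraries differed from each other more than the 2 WT libraries did. Over the 4039 genes averaging 20 FPKM or more, the ratio of R111A replicate 1 to replicate 2 had a median of 1.01, with 90% of genes between 0.707 and 1.42. Zc3h12a had a ratio of 1.50, above that of 97.4% of these genes. Egr1 had 1.77, Nr4a1 1.60, Ier5 1.47, Ier2 1.43, Egr2 1.37, Nab2 1.36, Nr4a3 1.27 and Nr4a2 1.07. These 8 genes were thus higher in the R111A library that also had more Zc3h12a, and only Egr3, at 0.980, was lower. Between the WT replicates the same ratios ran from 0.841 for Nr4a2 to 1.10 for Egr1. R111A replicate 2 was also the shallowest library: by the steps between low values, the depth of WT replicate 1 was 1.06 times that of the first R111A library and 1.18 times that of the second. The part of Zc3h12a or of depth in this pattern was not tested.

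**Figure D4:**
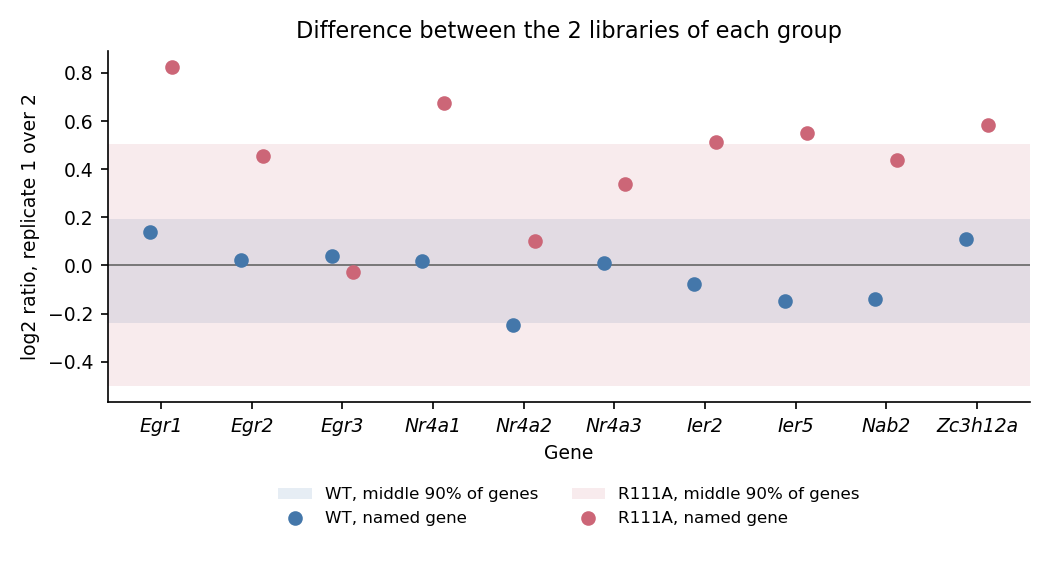
Log2 ratio of replicate 1 over replicate 2 (y axis) within WT (blue) and within R111A (red) for the 9 tested genes and Zc3h12a; bands hold the middle 90% of 4039 genes. The red points of Egr1, Nr4a1, Ier2, Ier5 and Zc3h12a are above the red band, and the lone blue point outside its band is Nr4a2.

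Over the 4 libraries, the genes whose centred log2(FPKM + 1) profiles lay nearest to that of Egr2, among 7639 others averaging 5 FPKM or more, were Per1, Rasa3 and Tuba1a, at Euclidean distances of 0.0622, 0.0890 and 0.116. Per1, a circadian clock gene, was read at 9.32 and 9.30 FPKM in WT against 35.1 and 23.9 FPKM in R111A, so its pattern of 1 higher and 1 lower R111A library matched that of Egr2.

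Of 21 partners and paralogs of these factors that were tested, 5 rose (23.8%), 4 fell (19.0%) and 12 did not pass, beside 21.2% and 32.1% of all genes. The median was 0.12, against -0.12 over all genes. Past both thresholds were Rxra, Hdac7 and Crem. Rxra, the retinoid receptor with which NR4A1 and NR4A2 can pair, was read at 8.55 and 8.36 FPKM in WT versus 1.48 and 0.88 FPKM in R111A, a fall of 2.13 on the log2 scale (-2.13, adjusted p = 2.9e-05). Rxrg was listed at 0 in every library. Rxrb was read at 32.2 and 34.4 FPKM in WT against 25.7 and 22.2 FPKM in R111A (-0.46, adjusted p = 0.021), but did not pass without WT replicate 1 (adjusted p = 0.16), without WT replicate 2 (0.26, the highest of its 14 alternatives), with median-of-ratios factors or after quantile normalization. Hdac7, a deacetylase known to hold down Nr4a1 through MEF2 in thymocytes, was read at 142 and 139 FPKM in WT against 36.8 and 33.2 FPKM in R111A (-1.98, adjusted p = 1.2e-05). Crem, which encodes activators and repressors that act at cyclic AMP response elements, was read at 15.6 and 17.7 FPKM in WT versus 35.0 and 47.8 FPKM in R111A (1.25, adjusted p = 4.8e-04; 0.93 with TPM). Srf, whose protein binds the CArG box, was read at 32.8 and 34.9 FPKM in WT against 28.4 and 21.2 FPKM in R111A (-0.45, adjusted p = 0.045), a call that was lost under 6 of 14 alternatives (adjusted p up to 0.27), among them those without WT replicate 1, without WT replicate 2 and without R111A replicate 2. The paralogs Egr4 and Ier5l were under the minimum for testing, at 0.15 to 0.68 FPKM and 0.36 to 1.02 FPKM. The counts of this list moved when a library was left out. In such a fit the spread comes only from the group that keeps 2 libraries. A changed count therefore need not come from the value of the library left out. Without WT replicate 1 the log2 difference was -0.51 for Rxrb and -0.49 for Srf, and without WT replicate 2 it was -0.42 and -0.405. With TPM 2 rose and 6 fell, and with median-of-ratios factors or quantile normalization 6 rose and 2 fell.

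Of 38 genes of upstream signalling tested, 6 rose, 13 fell and 19 did not pass (15.8% and 34.2%, against 21.2% and 32.1% of all genes), with a median of -0.17. On the route from RAS to ERK, 8 of 17 genes fell, among them Map2k2 and Araf, each of which passed under all 14 alternatives. Rps6ka1, a kinase below ERK, was the only one of the 17 past both thresholds. It was read at 74.5 and 74.8 FPKM in WT compared with 39.5 and 27.2 FPKM in R111A (-1.16, adjusted p = 8.4e-04), and was under 2-fold without R111A replicate 2 (-0.90) and after quantile normalization (-0.98). On the route from calcium to NFAT, 4 of 21 rose and 5 fell. Orai2, a calcium channel subunit, was read at 6.42 and 7.18 FPKM in WT versus 40.5 and 36.8 FPKM in R111A (2.35, adjusted p = 9.4e-06). Ppp3ca, a catalytic subunit of calcineurin, was read at 1.11 and 0.94 FPKM in WT against 4.44 and 3.79 FPKM in R111A (1.33, adjusted p = 1.4e-04; under 2-fold, at 0.60, with a pseudocount of 5 FPKM). The catalytic subunit gene Ppp3cb was read at 20.4 and 22.7 FPKM in WT versus 24.6 and 31.2 FPKM in R111A, and Ppp3cc at 25.2 and 23.8 FPKM in WT against 25.2 and 24.4 FPKM in R111A; neither passed (0.35 and 0.018, adjusted p = 0.088 and 0.92). Ppp3cb did pass under 3 of 14 alternatives: with median-of-ratios factors, after quantile normalization and without R111A replicate 1 (0.52, adjusted p = 0.0077). The regulatory subunit gene Ppp3r1 fell (-0.97, adjusted p = 6.9e-04). In this list 7 genes fell without WT replicate 1 and 7 without WT replicate 2, and 20 fell with TPM.

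Among 38 other early response genes averaging 1 FPKM or more in each genotype, 23 rose (60.5%), 9 fell (23.7%) and 6 did not pass, beside 19.0% and 32.3% of the 9300 genes that did so; the median was 0.895. Of the 7 FOS and JUN genes, 6 rose and Jund fell (-0.64, adjusted p = 0.019), the last not without WT replicate 2 (adjusted p = 0.057) and with an adjusted p of up to 0.13 over 14 alternatives. Fosl2 was read at 5.16 and 4.77 FPKM in WT compared with 34.6 and 31.5 FPKM in R111A (2.51, adjusted p = 7.3e-06), while Fos, Jun and Junb rose by 1.14, 1.15 and 1.07. Other transcription factor genes past both thresholds were Klf2, Klf6, Maff and Csrnp1 upward and Myc downward. Myc was read at 228 and 204 FPKM in WT versus 128 and 87.6 FPKM in R111A (-1.02, adjusted p = 0.0019). Of the remaining genes of the list, Dusp1, Zfp36, Nfkbia, Btg2, Gadd45b, Sik1, Per1 and Cd69 were called higher. Gadd45b was read at 76.8 and 96.2 FPKM in WT against 617 and 476 FPKM in R111A (2.64, adjusted p = 1.2e-05). Dusp5, Dusp6 and Rgs1 were called lower. Dusp5, a phosphatase induced by and acting on ERK, was read at 136 and 140 FPKM in WT against 63.2 and 55.5 FPKM in R111A. Dusp6, a phosphatase of the same kind, was read at 61.9 and 63.8 FPKM in WT versus 24.8 and 26.0 FPKM in R111A. Dusp1, another phosphatase of this family, was by contrast higher, with a mean of 6.605 FPKM in WT versus 27.7 FPKM in R111A. Spry2, with a mean of 0.190 FPKM in WT against 4.24 FPKM in R111A, passed the minimum mean only through R111A and is left out of these counts; with no filter its adjusted p was 0.0023. Single libraries decided the 2-fold threshold for several genes: without R111A replicate 1 the change was 0.98 for Fos, 0.91 for Jun, 0.78 for Junb, 0.84 for Klf2 and 0.73 for Zfp36; without R111A replicate 2 it was 0.97 for Cd69 and -0.75 for Myc; and without WT replicate 1 it was -0.94 for Myc. Other settings also took genes under 2-fold. With TPM the change was 0.86 for Fos, 0.86 for Jun, 0.74 for Junb, 0.80 for Zfp36 and 0.895 for Cd69. With a pseudocount of 5 FPKM it was 0.76 for Fos, 0.84 for Jun, 0.83 for Spry2 and -0.99 for Myc. Quantile normalization gave -0.97 for Dusp5 and -0.80 for Myc, and median-of-ratios factors -0.885 for Myc; with no filter Klf2 had an adjusted p of 0.063. Without WT replicate 2, 5 genes of the list fell.

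**Figure D5:**
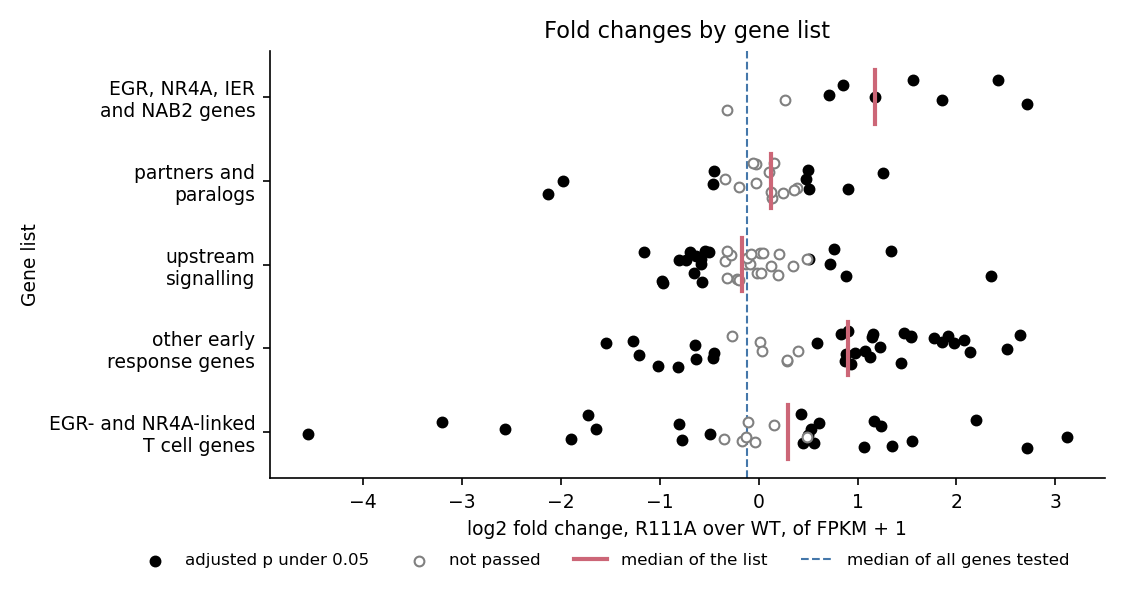
Log2 fold change of R111A over WT on the FPKM + 1 scale (x axis) for the genes tested in 5 lists (y axis). Filled points passed an adjusted p of 0.05 and open points did not; the red bar is each list's median and the dashed line the median of all genes (-0.12). Spry2, Tox2 and Nrgn are included. The early response genes tested have a median of 0.91 and the upstream genes one of -0.17.

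Of 30 genes tested that are linked to EGR2, EGR3 or NR4A proteins in T cells, 28 averaged 1 FPKM or more in each genotype: 13 rose (46.4%), 9 fell (32.1%) and 6 did not pass, beside 19.0% and 32.3% of all genes that did so. Their median was 0.195. The other 2, Tox2 and Nrgn, passed the minimum mean only through R111A and are left out of these counts. Among the 17 linked to EGR2 and EGR3, 9 rose and 5 fell. Sema7a was read at 21.1 and 22.1 FPKM in WT compared with 223 and 170 FPKM in R111A (3.12, adjusted p = 4.7e-06), and Ndrg1, known as an anergy factor, at 5.02 and 5.14 FPKM in WT versus 45.1 and 33.3 FPKM in R111A (2.71, adjusted p = 1.1e-05). Crtam, Tnfrsf9, Fasl and Bcl6 were also called higher, Fasl not with TPM (0.92). Cblb and Dgka, inhibitors of TCR signalling, had log2 differences of 0.56 and 0.43 (adjusted p = 0.0096 and 0.021); neither passed with TPM (0.19 and 0.55, the highest of their alternatives), without WT replicate 1 (0.052 and 0.13) or without WT replicate 2 (0.18 and 0.27). Lag3, an inhibitory receptor, went the other way, at 72.7 and 64.6 FPKM in WT against 7.12 and 5.97 FPKM in R111A (-3.21, adjusted p = 3.4e-06). The cytokine gene Il2 was read at 100 and 96.9 FPKM in WT compared with 3.98 and 2.58 FPKM in R111A (-4.56, adjusted p = 2.7e-06), and Tbx21 fell as well (-2.57, adjusted p = 3.0e-05). Among the 11 linked to NR4A proteins, 4 rose and 4 fell. Runx1 was called higher and Ctla4, Foxp3 and Cd200 lower. Tox2 had a mean of 0.570 FPKM in WT against 2.33 FPKM in R111A, and with no filter an adjusted p of 0.017. Foxp3, the factor that defines Tregs, was read at 11.3 and 8.78 FPKM in WT against 2.86 and 1.86 FPKM in R111A (-1.72, adjusted p = 1.5e-04). Runx1 was under 2-fold without R111A replicate 1 (0.99), with TPM (0.86) and with a pseudocount of 5 FPKM (0.90). Tox2 was under 2-fold with TPM (0.92), after quantile normalization (0.86) and with a pseudocount of 5 FPKM (0.39), and had too low a mean to be tested without R111A replicate 1. Of all 30 genes, with Tox2 and Nrgn counted, 14 rose as deposited and 8 rose with TPM. The number that rose also moved with a library left out.

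Markers of other cells moved with the same contrast. For scale, both R111A libraries were above both WT libraries in 32.0% of the genes tested and below both in 46.3%. Most markers of cells other than CD4 T cells were under the minimum for testing; of the 4617 genes above 0 but under that minimum, these shares were 35.2% and 14.9%. The 9 myeloid markers summed to 2.27 and 1.50 FPKM in WT compared with 17.1 and 11.8 FPKM in R111A, and 7 of the 9 were above WT in both R111A libraries. The most abundant was Cd68, at 1.54 and 0.78 FPKM in WT versus 8.89 and 6.81 FPKM in R111A; S100a9 was listed at 0 in every library and Csf1r did not exceed 0.07 FPKM. The 4 NK cell markers summed to 1.03 and 0.82 FPKM in WT against 7.86 and 5.68 FPKM in R111A, all 4 above WT, with Eomes, which T cells also express, the most abundant at 6.68 and 4.32 FPKM in R111A. The 7 erythroid and platelet markers summed to 0.66 and 0.70 FPKM in WT compared with 13.0 and 13.1 FPKM in R111A, nearly all from Hba-a1, while Hbb-bs and Pf4 were listed at 0. The 5 B cell markers read summed to 2.13 and 0.95 FPKM in WT versus 5.13 and 4.49 FPKM in R111A. Cd79a had the highest mean of them, though Cd79b was above it in WT replicate 1 (1.15 against 0.32 FPKM). Of the 5, 2 were above WT in both R111A libraries and 1, Pax5, was below. Pax5 did not exceed 0.06 FPKM. The 5 dendritic cell markers summed to 1.76 and 1.53 FPKM in WT against 2.31 and 2.47 FPKM in R111A, with Zbtb46 the most abundant. Of the 5, 2 were above WT in both R111A libraries. Siglech was below, at 0.20 and 0.26 FPKM in WT and 0 in both R111A libraries, and Flt3 and Xcr1 overlapped between the groups. The 2 CD8 T cell markers summed to 7.31 and 6.76 FPKM in WT compared with 3.88 and 4.46 FPKM in R111A, mostly Cd8b1. The 3 Treg markers summed to 156 and 149 FPKM in WT versus 133 and 135 FPKM in R111A. Most of that sum was Il2ra, at 140 and 136 FPKM in WT against 127 and 129 FPKM in R111A. Foxp3 was lower, at 11.3 and 8.78 FPKM in WT against 2.86 and 1.86 FPKM in R111A. Ikzf2 overlapped between the groups. The 9 CD4 T cell markers summed to 2172 and 2158 FPKM in WT against 1754 and 1608 FPKM in R111A, and 7 of the 9 were below WT in both R111A libraries. Cd3g had the highest mean of them. In R111A replicate 1, however, it stood at 289 FPKM, below Cd5 at 296 and Lck at 295 FPKM. Past both thresholds, 2 of the 9 were lower, Cd4 (-1.24, adjusted p = 5.7e-04) and Thy1 (-1.90, adjusted p = 1.3e-05), and 0 were higher. The part of such cells in the EGR, NR4A, IER and Nab2 values was not tested. The Y-linked genes Ddx3y, Eif2s3y, Kdm5d and Uty were expressed in all 4 libraries, at 2.93 to 63.1 FPKM. Ddx3y, Kdm5d and Uty were higher in both R111A libraries (0.51, 0.47 and 0.75, adjusted p = 0.04, 0.045 and 0.017), but none of them passed with TPM. Eif2s3y overlapped between the groups.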

How the data were processed

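RNA-seq of 2 WT and 2 R111A libraries was used. Per the labels and the methods of the study, polyA RNA was sequenced and the submitters' processing notes name Bowtie2 (version 2.4.4), RSEM (version 1.2.28) and mm10. The authors deposited FPKM values for 16142 genes; these are not counts, so read numbers are unknown, and relative depth was read from steps between 0.1 and 0.6 FPKM. Values were tested as log2(FPKM + 1), in genes averaging 1 FPKM or more, with limma (version 3.58.1, R 4.3.3, lmFit, eBayes with trend) and Benjamini-Hochberg adjustment over 9831 genes; this scale understates changes of low genes. Called genes had an adjusted p under 0.05 and a 2-fold change. The fit was tested on simulated data. Steps other than the fit ran in python 3.11.15. Promoters and annotation came from RefSeq GRCm38.p6 and GENCODE vM21. The members and lists were chosen with earlier results of these data known. Named were the 10 genes, list genes past both thresholds, the 3 nearest profiles to Egr2, Zc3h12a and markers (the same search for Nr4a1 was run but is left out, as its genes averaged under the 5 FPKM minimum in WT); other list genes named beside them (Cd3e, Nab1, Rxrb, Rxrg, Srf, Egr4, Ier5l, Map2k2, Araf, Ppp3cb, Ppp3cc, Ppp3r1, Jund, Cblb, Dgka and Nrgn) were picked after their values were seen. Alternatives were other pseudocounts, filters, scalings and eBayes settings, a term for replicate number, and leaving out each library.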

Additional observations from a re-analysis of the deposited data

How the results depend on the processing

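Over 14 alternatives the genes past adjusted p with higher values numbered 7 or 8 of the 10, and those also past 2-fold 4 to 6. With lower values 1 gene, Egr3, passed with TPM, and 0 to 1 did with a library left out; with TPM Nr4a3 turned to -0.069, Nab1 to -0.17 and Ppp3cc to -0.30, and Ppp3cc, near 0 in the main fit, was -0.022 without WT replicate 2 and -0.004 without R111A replicate 1 (range with a library left out -0.022 to 0.057). Called genes over the whole table numbered 386 higher and 402 lower with a pseudocount of 5 FPKM, which shrinks the fold changes of low genes, 521 higher with a minimum mean of 5 FPKM, which tests fewer genes, and 1756 lower with TPM. With TPM the genes passing were 2 higher among partners and paralogs, 20 lower in upstream signalling and 8 higher among linked T cell genes; partners numbered 2 lower after quantile normalization and with median-of-ratios factors. Apart from the shift of the median that TPM brings, the cause was not tested. With 1 library left out, where the lone library is assumed to vary like the other group, the ranges were 2 to 8 higher and 2 to 6 lower for partners and paralogs, 7 to 17 lower for upstream signalling, 5 to 10 lower for other early response genes and 9 to 15 higher for linked T cell genes. Of the 46 genes past both thresholds among the 10 and the lists, markers aside, 16 missed one under some alternative. They always missed the 2-fold threshold, except Klf2 with no filter (adjusted p = 0.063). Both numbers include Spry2 and Tox2, which passed the minimum mean only through R111A. The counts of linked T cell genes given here also include Tox2 where it was tested. Replicates 1 and 2 share only a number across genotypes (correlation of their differences across 9831 genes 0.11); with replicate number as a block, 841 genes were called higher and 821 lower. Depth is unknown, so values under 1 FPKM, such as those of Ier3, have no stated precision.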
